A study of Mus musculus with 19 samples.

Results

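The pathway that leads in Purkinje cells from metabotropic glutamate receptors to calcium release through the IP3 receptor was examined in 7 genes, chosen by name: *Gnaq*, *Plcb1*, *Plcb3*, *Plcb4*, *Itpr1*, *Homer3* and *Car8*. These are 7 of the 41128 genes in the count files, and all 7 passed the filter on low counts, by which 16841 genes were tested. The libraries came from C57BL/6 mice aged 3 months, either germline SCA17 knock-in (KI) mice or age-matched wild-type (WT) mice. SCA17 is caused by a lengthened polyglutamine repeat in TBP, the protein that binds the TATA box, and the KI allele holds such a repeat. The floxed KI allele was recombined by EIIa-Cre, a transgene active in the early embryo, and passed through the germline, so the allele is in all tissues and not in Purkinje cells alone. The labels describe 3 to 4 mice per genotype, and do not say whether the regions came from the same mice. The cerebellum was sampled in 3 WT and 4 KI libraries, and the striatum and the prefrontal cortex were each sampled in 3 WT and 3 KI libraries. Total counts ran from 10639110 to 17431284 per library, and in the cerebellum the 4 KI libraries (15695641 or more) were all deeper than the 3 WT libraries (15162265 or less). The comparisons asked whether the KI allele altered these genes, in which region, and where the genes are expressed in WT brain.

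Purkinje cells, the output neurons of the cerebellar cortex, receive glutamate from parallel fibers on metabotropic receptors. These activate the G protein alpha subunit Gq, Gq activates phospholipase C beta, and the phospholipase cleaves a membrane lipid into IP3 and diacylglycerol. IP3 opens the IP3 receptor on the endoplasmic reticulum and releases calcium into the dendrite, and the step is needed for long-term depression at parallel fiber synapses. *Gnaq* encodes Gq. *Plcb1*, *Plcb3* and *Plcb4* encode isozymes of phospholipase C beta, *Itpr1* encodes the main IP3 receptor of Purkinje cells, *Homer3* encodes a postsynaptic scaffold that ties metabotropic receptors to the IP3 receptor, and *Car8* encodes a carbonic anhydrase-related protein without enzyme activity that binds the IP3 receptor and lowers its affinity for IP3.

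The genes lie on separate loci of the GRCm38 build. *Gnaq* (ENSMUSG00000024639) spans chr19:16132831-16387463 on the plus strand, *Plcb1* (ENSMUSG00000051177) spans chr2:134786067-135475258 on the plus strand, and *Plcb4* (ENSMUSG00000039943) follows it at chr2:135659011-136014593 on the same strand. *Plcb3* (ENSMUSG00000024960) spans chr19:6952325-6976470 on the minus strand, and *Itpr1* (ENSMUSG00000030102) spans chr6:108213096-108551109 on the plus strand. *Homer3* (ENSMUSG00000003573) spans chr8:70282827-70294361 on the plus strand and *Car8* (ENSMUSG00000041261) spans chr4:8143362-8239041 on the minus strand. In the GENCODE M21 annotation 25.4% of the exon length of *Homer3* is shared with *Ddx49* on the opposite strand. The library kits do not mark strand, so reads from the shared 874 bases cannot be assigned by strand to either gene. *Ddx49* itself differed between KI and WT cerebellum by 0.08 on the log2 scale (SE 0.130, edgeR adjusted p = 0.904). *Plcb1* shares 178 exon bases with the antisense gene *9630028H03Rik*, and *Plcb3* shares 22 exon bases with *Ppp1r14b*.

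RefSeq promoter windows of the GRCm38.p6 build, each 300 bases from 250 before to 50 after an annotated start, were found for *Gnaq*, *Plcb1*, *Plcb3*, *Plcb4* and *Homer3*, and there was no entry for *Itpr1* and *Car8*. The windows of the phospholipase genes are shown because these isozymes of one family differed most in the results that follow. *Plcb3* lies at chr19:6969765-6970064 on the minus strand, *Plcb4* at chr2:135659297-135659596 on the plus strand, and *Plcb1* at chr2:134785914-134786213 on the plus strand. The windows of *Plcb3* and *Plcb4* lie inside the gene spans given above. That of *Plcb3* is further in, since on the minus strand its span begins at 6976470, so it is not the window of the outermost start. Capitals mark the GC box letters GGGCGG on either strand, with overlapping matches joined.

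Plcb3: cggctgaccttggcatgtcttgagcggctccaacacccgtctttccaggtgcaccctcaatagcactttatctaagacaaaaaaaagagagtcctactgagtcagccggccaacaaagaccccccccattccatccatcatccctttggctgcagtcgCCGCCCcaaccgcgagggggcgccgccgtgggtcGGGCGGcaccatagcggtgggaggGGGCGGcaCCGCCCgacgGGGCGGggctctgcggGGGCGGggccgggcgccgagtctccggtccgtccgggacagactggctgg
Plcb4: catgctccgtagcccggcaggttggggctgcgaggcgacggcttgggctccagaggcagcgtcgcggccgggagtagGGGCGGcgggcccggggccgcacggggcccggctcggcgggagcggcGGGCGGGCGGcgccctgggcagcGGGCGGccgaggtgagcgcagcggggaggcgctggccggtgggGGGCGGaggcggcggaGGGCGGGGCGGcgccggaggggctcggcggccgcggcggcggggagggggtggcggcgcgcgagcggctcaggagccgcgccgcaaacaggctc
Plcb1: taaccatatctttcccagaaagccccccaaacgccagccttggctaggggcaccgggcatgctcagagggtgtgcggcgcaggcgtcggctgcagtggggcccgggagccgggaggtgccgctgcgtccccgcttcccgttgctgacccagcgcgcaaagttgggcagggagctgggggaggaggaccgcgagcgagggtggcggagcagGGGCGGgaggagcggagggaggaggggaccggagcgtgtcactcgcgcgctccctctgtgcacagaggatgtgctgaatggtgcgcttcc

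The *Plcb3* window holds 6 matches to GGGCGG, the *Plcb4* window 7, of which some overlap, and the *Plcb1* window 1. The windows of *Gnaq* and *Homer3* hold 5 each, and a second annotated start of *Plcb4*, at chr2:135764588-135764887, holds 0. Of the 32851 promoter windows in the same table, 35.7% hold at least 1 match, with a median of 0. The TATA box letters TATAAA, for which TBP is named, were also searched on both strands, and were in none of these 6 windows and in 13.6% of all windows. These matches describe the windows and say nothing of TBP at them.

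In WT mice, 4 of the genes (*Car8*, *Homer3*, *Plcb4* and *Plcb3*) had cerebellar levels several times those of the other regions. *Itpr1* was graded across the regions, *Gnaq* differed less than *Itpr1* and was lowest in the striatum, and *Plcb1* was lowest in the cerebellum. All 7 differed between WT cerebellum and WT striatum in edgeR's quasi-likelihood test (adjusted p under 0.05), as did 56.5% of all genes tested, and all 7 differed between WT cerebellum and WT prefrontal cortex, as did 52.0% of all genes. Between striatum and prefrontal cortex 5 of the 7 differed, against 30.5% of all genes.

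*Car8* reached 2188, 2563 and 2262 CPM (read counts scaled to the same library size) in the 3 WT cerebellum libraries. It lay between 14.0 and 21.9 CPM in WT striatum and between 26.6 and 29.2 CPM in WT prefrontal cortex. The cerebellar mean was 134 times the striatal mean and 84.6 times the cortical mean, and the log2 differences were 7.07 (SE 0.236, adjusted p = 6.33e-13) and 6.40 (SE 0.228, adjusted p = 1.25e-12). Per kilobase of exon, *Car8* ranked 21 among 16733 genes in WT cerebellum. Its striatal level was below its cortical level by 0.67 on the log2 scale (SE 0.195, adjusted p = 0.0150), a difference that did not pass without striatum WT replicate 1 (adjusted p = 0.0904) or 2 (adjusted p = 0.0664).

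*Homer3* measured 137, 157 and 145 CPM in WT cerebellum, against 4.33 to 4.68 CPM in WT striatum and 3.29 to 5.12 CPM in WT prefrontal cortex. Its cerebellar mean was 32.2 times the striatal mean and 37.1 times the cortical mean. Striatum and cortex overlapped and did not differ by the test (log2 difference 0.21, SE 0.185, adjusted p = 0.445). The low levels in those regions rest on 48 to 76 reads per WT library.

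*Itpr1* fell in steps, at 874, 840.2 and 823 CPM in WT cerebellum, 418, 452 and 346 CPM in WT striatum and 217, 250.4 and 195 CPM in WT prefrontal cortex. No library of one region overlapped another region. The cerebellum exceeded the striatum 2.09-fold (log2 difference 1.06, SE 0.166, adjusted p = 3.93e-05), and the striatum exceeded the cortex 1.83-fold (log2 difference 0.87, SE 0.166, adjusted p = 0.000698).

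*Gnaq* differed least. WT libraries held 132 to 148 CPM in the cerebellum, 100.5 to 107 CPM in the striatum and 153 to 180 CPM in the prefrontal cortex, so that cortex ranked first and striatum last. The cortex exceeded the cerebellum by 0.24 on the log2 scale (SE 0.069, adjusted p = 0.00866), and this step did not pass without cortex WT replicate 1 (adjusted p = 0.0642). The other steps were larger. The log2 difference of striatum from cortex was -0.64 (SE 0.069, adjusted p = 3.10e-06) and that of cerebellum from striatum was 0.41 (SE 0.069, adjusted p = 8.90e-05).

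**Figure D1:**
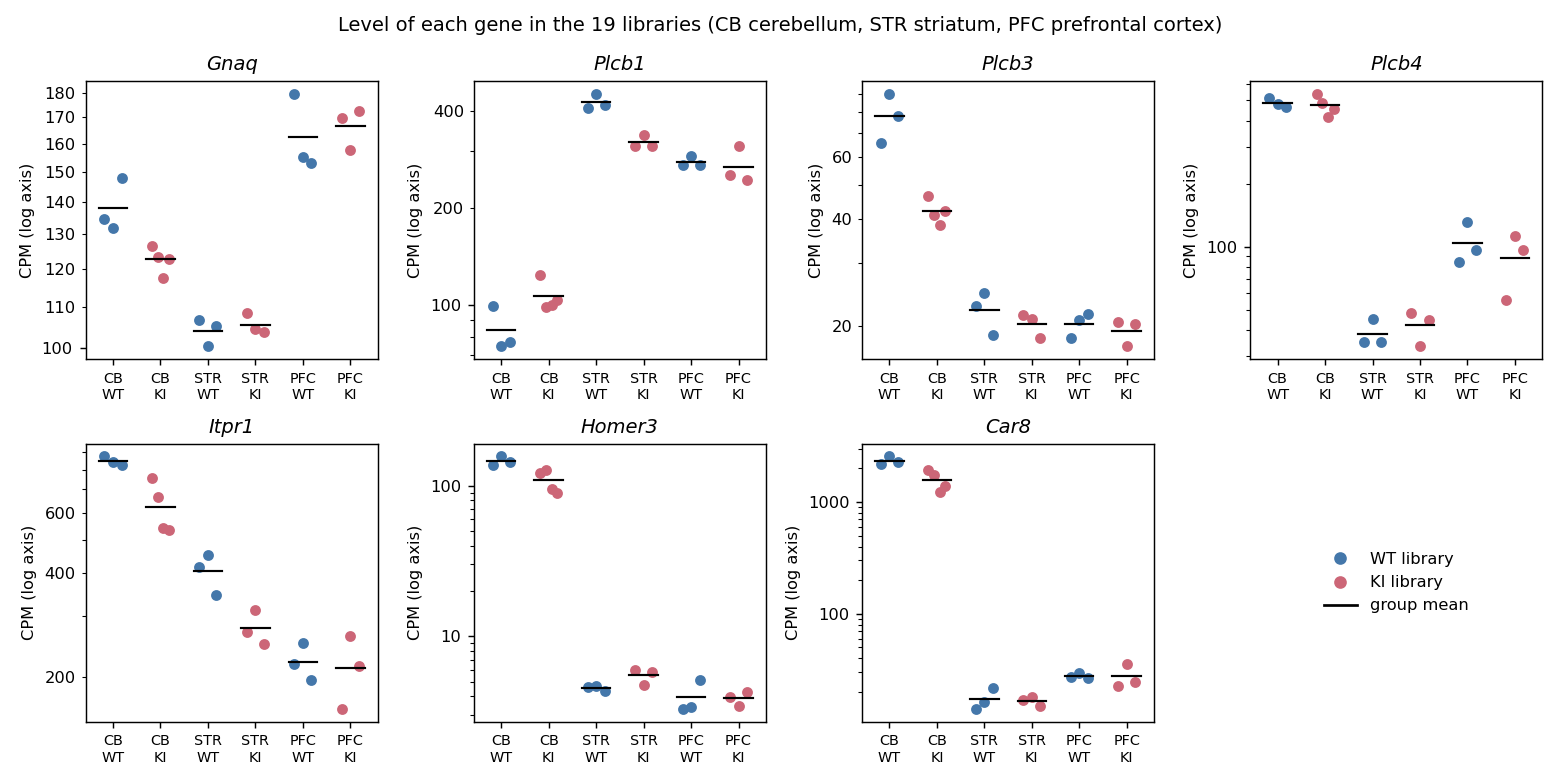
Level of each gene in CPM on a log axis, 1 point per library, for WT and KI of each region (CB, the cerebellum, then STR, the striatum, and PFC, the prefrontal cortex), with a bar at the group mean. *Car8* and *Homer3* stand more than 30 times higher in WT cerebellum than in the other regions, *Plcb1* is lowest there, and *Plcb3* in KI cerebellum lies between 38.4 and 46.4 CPM, below the WT libraries at 65.7 to 90.1 CPM.

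The phospholipase C beta isozymes had opposite regional patterns. *Plcb4* measured 464 to 515 CPM in WT cerebellum, 35.2 to 45.1 CPM in striatum and 84.6 to 131 CPM in cortex, which put the cerebellum 12.6 times above the striatum and 4.68 times above the cortex. *Plcb3* measured 65.7 to 90.1 CPM in WT cerebellum and 18.5 to 24.8 CPM in the other regions, 3.52 and 3.84 times lower in the mean, and striatum and cortex did not differ by the test (log2 difference 0.13, SE 0.129, adjusted p = 0.508). *Plcb1* ran the other way, with 74.6 to 99.3 CPM in WT cerebellum, 271 to 290.1 CPM in cortex and 408 to 452 CPM in striatum. Its log2 difference of cerebellum from striatum was -2.35 (SE 0.119, adjusted p = 5.94e-11).

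Levels of different genes were compared only per kilobase of exon. In WT cerebellum the order was *Car8* at 607 ± 51.6 CPM per kb, *Plcb4* at 54.2 ± 2.89, *Itpr1* at 46.2 ± 1.42, *Homer3* at 42.5 ± 2.83, *Gnaq* at 22.3 ± 1.40, *Plcb3* at 11.2 ± 1.76 and *Plcb1* at 7.52 ± 1.23 (mean ± SD, n = 3). The ranges of *Itpr1* (44.9 to 47.7 CPM per kb) and *Homer3* (39.9 to 45.5) overlapped, and those of the other neighbours in this order did not.

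Expressed as shares of the summed CPM per kb of the 4 phospholipase C beta genes (*Plcb2* included), *Plcb4* made up 74.3% ± 1.29 of the WT cerebellar total, *Plcb3* 15.4% ± 2.68 and *Plcb1* 10.3% ± 1.35 (SD, n = 3). *Plcb1* took 82.0% ± 0.835 of the total in WT striatum and 62.6% ± 3.36 in WT prefrontal cortex. The cerebellum was thus the region in which *Plcb4* led, with *Plcb3* and *Plcb1* as minor isozymes.

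The KI allele was next compared with WT in the cerebellum, the region where these genes work in Purkinje cells. *Plcb3* fell by 46.0% and was the only 1 of the 7 genes to pass the test, where 0.831% of all 16841 genes passed, 87 higher and 53 lower (0.315% lower). Of the 7 genes, 5 (*Gnaq*, *Plcb3*, *Itpr1*, *Homer3* and *Car8*) had every KI library below every WT library, which held for 6.47% of all genes. In all, 6 of the 7 had an unadjusted p under 0.05, as did 10.1% of all genes. The median log2 fold change of the 7 was -0.43, and that of all genes was 0.01.

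*Plcb3* measured 65.7, 90.1 and 78.0 CPM in the WT libraries and 46.4, 41.2, 38.4 and 42.2 CPM in the KI libraries. Every KI library lay below the lowest WT library, and the KI libraries were closer together than the WT libraries. The log2 fold change was -0.89 (SE 0.116, 95% interval -1.13 to -0.65, edgeR adjusted p = 0.000418). The call was kept when any of the 7 cerebellum libraries was left out, with log2 fold changes from -0.998 to -0.770 and adjusted p from 0.000439 to 0.00613. In the KI cerebellum *Plcb3* was still 2.07 times its level in KI striatum, against 3.52 times among WT libraries.

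The other isozymes did not follow. *Plcb4*, the most abundant, measured 515, 480.1 and 464 CPM in WT and 539, 485, 419 and 456 CPM in KI cerebellum. The groups overlapped at both ends and the log2 fold change was -0.03 (SE 0.192, adjusted p = 0.985), with a 95% interval from -0.44 to 0.37. *Plcb1* measured 99.3, 74.6 and 76.9 CPM in WT and 124, 98.9, 99.8 and 104 CPM in KI cerebellum. Its KI libraries were above WT replicates 2 and 3, and WT replicate 1 fell within the KI range (log2 fold change 0.35, SE 0.108, adjusted p = 0.185). Without WT replicate 1, the log2 fold change of *Plcb1* was 0.50 (edgeR adjusted p = 0.0386). This was the only 1 of the 7 fits leaving out a cerebellum library in which *Plcb1* was called (edgeR adjusted p up to 0.579). WT replicate 1 held 1958 CPM of choroid plexus markers, and KI replicate 3, with *Plcb1* at 99.8 CPM, held 4903 CPM.

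As shares of the summed CPM per kb, *Plcb3* occupied 12.4% to 17.7% in the WT and 8.55% to 9.14% in the KI cerebellum, while *Plcb1* occupied 9.17% to 11.8% and 12.9% to 14.7%. Both pairs of ranges were apart, in opposite directions. *Plcb4* occupied 73.1% to 75.7% in WT and 76.3% to 78.4% in KI, also apart, although its own level overlapped between genotypes. The shares of a library make up a fixed whole, so a lower share of *Plcb3* by itself raises the shares of the others. The sum itself was 73.0 ± 2.98 CPM per kb in WT (n = 3) and 68.6 ± 7.04 in KI (n = 4), and the ranges of 69.9 to 75.8 and 61.2 to 78.0 overlapped. The summed level of the family thus overlapped between genotypes. The share of *Plcb3* was lower, and those of *Plcb1* and *Plcb4* higher, in every KI library than in any WT library. The higher shares alone do not show a rise of *Plcb1* or *Plcb4*.

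**Figure D2:**
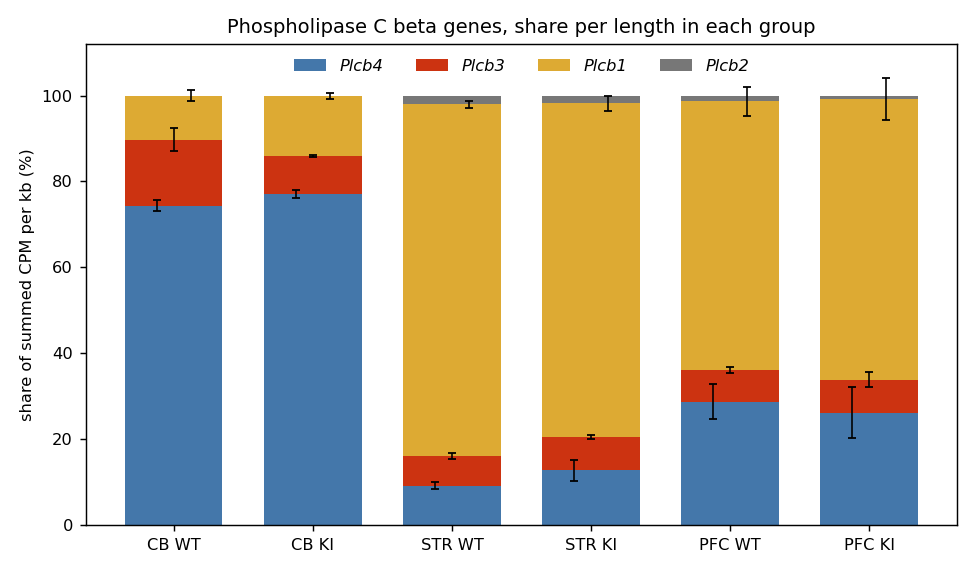
Share of each phospholipase C beta gene in the summed CPM per kb of the 4 genes, in percent, as stacked bars of the group means (n = 3 libraries, 4 in KI cerebellum). Error bars are the SD of the share whose top they mark. The *Plcb3* band narrows from 15.4% in WT to 8.82% in KI cerebellum, and *Plcb1* fills most of the bar in striatum and prefrontal cortex.

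The IP3 receptor, its scaffold and its inhibitor (*Itpr1*, *Homer3* and *Car8*) had lower values of similar size in KI cerebellum that did not pass the test. *Car8* measured 2188, 2563 and 2262 CPM in WT and 1934, 1759, 1219 and 1386 CPM in KI cerebellum (log2 fold change -0.57, SE 0.166, 95% interval -0.92 to -0.22, adjusted p = 0.153). *Itpr1* measured 874, 840.2 and 823 CPM in WT and 758, 665, 539.8 and 533 CPM in KI (log2 fold change -0.44, SE 0.153, adjusted p = 0.274). *Homer3* measured 137, 157 and 145 CPM in WT and 122, 127, 94.8 and 90.0 CPM in KI (log2 fold change -0.43, SE 0.130, adjusted p = 0.172). For each of these genes KI replicates 1 and 2 were closer to WT than KI replicates 3 and 4, and no KI library reached the lowest WT library. *Car8* passed in DESeq2 (adjusted p = 0.0451) and in none of the edgeR fits that left out 1 library.

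*Gnaq* measured 135, 132 and 148 CPM in WT and 127, 123.5, 118 and 123 CPM in KI cerebellum. These groups were separate by a small margin, and the log2 fold change was -0.17 (SE 0.064, adjusted p = 0.337).

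**Figure D3:**
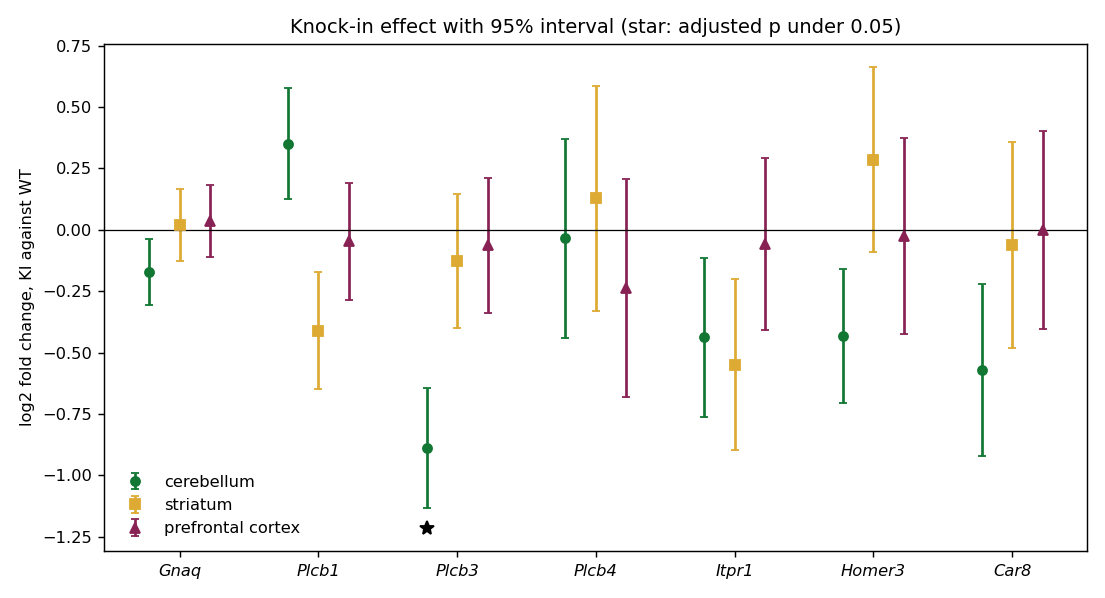
Log2 fold change of KI against WT for each gene in cerebellum (circles), striatum (squares) and prefrontal cortex (triangles), with 95% intervals from edgeR and a star where the adjusted p was under 0.05. The star stands at *Plcb3* in the cerebellum (-0.89), and *Plcb1* lies at 0.35 in the cerebellum and -0.41 in the striatum.

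The levels of the 7 genes were set beside those of Purkinje cell markers. Over the 7 cerebellum libraries, Pearson r with the log2 marker sum was 0.86 for *Gnaq*, 0.90 for *Plcb3*, 0.98 for *Itpr1*, 0.93 for *Homer3* and 0.96 for *Car8*. It was 0.55 for *Plcb4* and -0.51 for *Plcb1*. These values pool WT and KI libraries, whose marker sums were separate, so they in part restate the KI effect of each gene. Values of r with the sum inside the groups were not computed. Between the genes, with group means subtracted, r with *Itpr1* was 0.91 for *Plcb4*, 0.88 for *Car8* and 0.84 for *Homer3*. It was 0.54 for *Plcb1*, 0.32 for *Gnaq* and 0.31 for *Plcb3*. All 9 markers of the list, among them *Pcp2*, *Ppp1r17*, *Slc1a6*, *Calb1*, *Rgs8*, *Kcng4* and *Arhgef33*, had negative log2 fold changes in KI cerebellum, with a median of -0.40, and none was at 0 in any cerebellum library. Of these, 2 passed the test. The change of *Pcp2*, which encodes a Purkinje cell regulator of G protein signaling, was -1.16 on the log2 scale (adjusted p = 0.000196). Their summed level was 4553, 4622 and 4721 CPM in the WT libraries and 3946, 3387, 2913 and 2914 CPM in KI replicates 1 to 4, so that all KI libraries were below WT and KI replicates 3 and 4 were lowest. In these bulk samples, fewer Purkinje cells and less RNA per Purkinje cell cannot be told apart. The part of the marker level in the changes of the 7 genes was not tested.

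The log2 ratio of each gene to the summed markers was taken in every cerebellum library as a description. For *Itpr1* the ratio ran from -2.52 to -2.38 in WT and from -2.45 to -2.35 in KI, a mean difference of 0.05. *Homer3* and *Car8* likewise overlapped between the groups, with mean differences of 0.06 and -0.09. *Plcb3* ran from -6.12 to -5.68 in WT and from -6.41 to -6.11 in KI, a mean difference of -0.38 with ranges that overlapped at their edges. *Gnaq*, *Plcb4* and *Plcb1* were higher relative to the markers in KI, by 0.33, 0.47 and 0.86, with no overlap between the groups. The marker sum itself was lower in KI (mean 3290 CPM, against 4632 CPM in WT), so a gene of unchanged level also has a higher ratio. *Plcb4*, with a log2 fold change of -0.03, is such a gene. The share of all genes with separate ratios was not computed. Without *Pcp2* in the sum, the difference of *Plcb3* was -0.40 and that of *Itpr1* was 0.03. *Pcp2* had a mean of only 189 CPM in WT cerebellum, so leaving it out could change the ratios little. The largest parts of the WT sum were *Calb1* (mean 1987 CPM) and *Rgs8* (mean 947 CPM), and the ratios rest mainly on these.

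**Figure D4:**
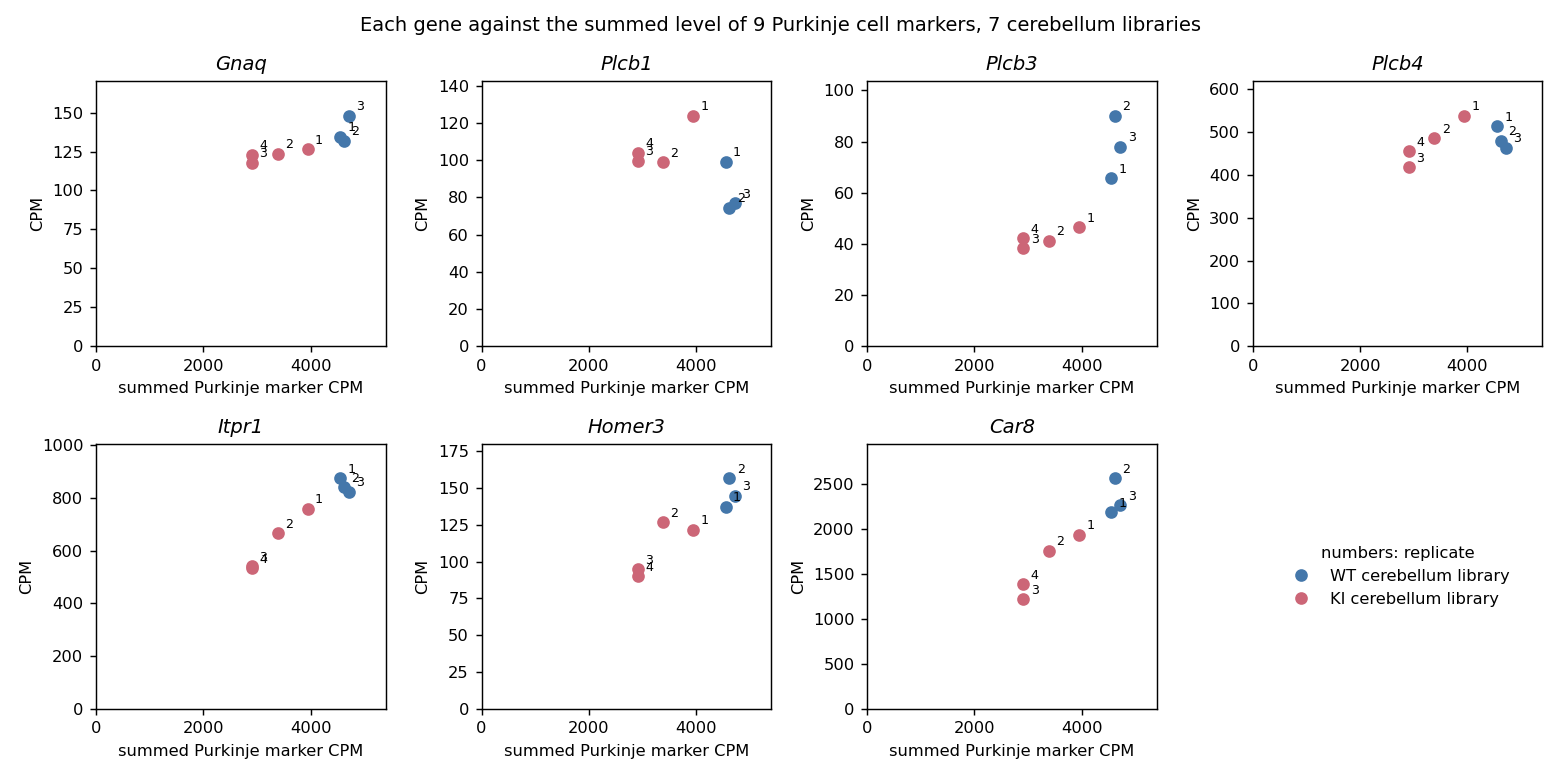
Level of each gene in CPM against the summed CPM of 9 Purkinje cell markers in the 7 cerebellum libraries, both axes from 0, with replicate numbers beside the points. *Itpr1*, *Homer3* and *Car8* are lowest where the marker sum is lowest, in KI replicates 3 and 4. *Plcb3* follows the sum only in part among KI libraries. It is highest in replicate 1 (46.4 CPM, sum 3946 CPM) and lowest in replicate 3 (38.4 CPM, sum 2913 CPM). Replicate 4 (42.2 CPM, sum 2914 CPM) lies above replicate 2 (41.2 CPM, sum 3387 CPM).

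Markers of other cells of the cerebellum were measured in the same way. Granule cell markers had negative log2 fold changes in 7 of 8 genes (median -0.23) and edgeR called 0 of them, with 0 under an unadjusted p of 0.05 (0 and 1 in DESeq2). Their summed level was 3596 to 4187 CPM in WT and 3319 to 3592 CPM in KI. All KI sums were thus below all WT sums for granule cell markers too, by a narrow margin. Microglial markers were higher in KI in 10 of 10 genes and 7 passed, with sums of 117 to 121 CPM in WT and 183 to 253 CPM in KI. The sums of the Bergmann glia and astrocyte list (2905 to 3285 CPM in WT, 3020 to 3524 in KI) and of the oligodendrocyte list (6781 to 8005 and 5559 to 8243) overlapped. Choroid plexus markers were high in WT replicate 1 (1958 CPM) and KI replicate 3 (4903 CPM) and between 18.9 and 41.1 CPM in the other 5 libraries. Without both libraries *Plcb3* was still called, and *Plcb1* passed as well (log2 fold change 0.53, adjusted p = 0.0494).

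In the striatum none of the 7 genes passed edgeR's test, where 0.582% of all genes did. An unadjusted p under 0.05 was found for 2 of the 7 and for 8.12% of all genes. DESeq2 called 1 of the 7, and 214 of all 16841 genes. *Itpr1* measured 418, 452 and 346 CPM in WT and 270.3, 312 and 249 CPM in KI, with every KI library lower (log2 fold change -0.55, SE 0.165, adjusted p = 0.239). *Plcb1*, the main phospholipase C beta of the striatum, measured 408, 452 and 417 CPM in WT and 312.1, 336 and 312.3 CPM in KI (log2 fold change -0.41, SE 0.113, adjusted p = 0.163). Its groups were also apart, and DESeq2 called it (adjusted p = 0.0480). All KI libraries below all WT libraries was found for 8.46% of all genes in this region.

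*Homer3* had all striatal KI libraries above WT, at 4.61, 4.68 and 4.33 CPM in WT and 6.02, 4.76 and 5.82 CPM in KI (log2 fold change 0.29, SE 0.179, adjusted p = 0.742), as did 5.65% of all genes. *Gnaq*, *Plcb3*, *Plcb4* and *Car8* overlapped between genotypes, with log2 fold changes from -0.13 to 0.13. The 6 markers of striatal projection neurons, the main neurons of that region, all had negative log2 fold changes and edgeR and DESeq2 each called 0, with 0 under an unadjusted p of 0.05. Their sum was 5663 to 6780 CPM in WT and 3377 to 4803 CPM in KI, and relative to that sum *Itpr1* differed by 0.08 and *Plcb1* by 0.22 on the log2 scale. Choroid plexus markers ranged from 1547 to 8908 CPM in WT and from 4227 to 7168 CPM in KI striatum. The part of either in the striatal values was not tested.

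In the prefrontal cortex 0 of the 7 genes passed edgeR's test, where 0.107% of all genes passed. An unadjusted p under 0.05 was found for 0 of the 7 and for 5.93% of all genes. DESeq2 called 0 of the 7, and 52 of all 16841 genes. Genotypes overlapped for all 7 genes, whereas 8.69% of all genes had groups that did not overlap, and the log2 fold changes ran from -0.24 for *Plcb4* to 0.04 for *Gnaq*. *Plcb3* measured 18.5 to 21.6 CPM in WT and 17.5 to 20.5 CPM in KI (log2 fold change -0.06, 95% interval -0.34 to 0.21), and *Itpr1* measured 195 to 250.4 CPM and 161 to 262 CPM.

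The difference of the KI effect between regions was tested directly for each gene. For *Plcb3* the effect was more negative in the cerebellum than in the striatum by 0.76 on the log2 scale (SE 0.174, unadjusted p = 0.000405, edgeR adjusted p = 0.240) and than in the prefrontal cortex by 0.83 (SE 0.174, unadjusted p = 0.000191, adjusted p = 0.179). For *Plcb1* the cerebellum and the striatum differed by 0.76 in the other direction (SE 0.156, unadjusted p = 0.000146, adjusted p = 0.156). Neither passed in edgeR, where 0.0119% of all genes did for the striatum and 0.0178% for the cortex. In DESeq2 both passed against the striatum, *Plcb1* with an adjusted p of 0.00677 and *Plcb3* with 0.0259, and *Plcb3* passed against the cortex with 0.0112. The *Plcb1* difference also passed in edgeR without cerebellum WT replicate 1 (adjusted p = 0.0335), the only 1 of 13 fits leaving out a library in which it did. It passed too without the 2 choroid-rich libraries (edgeR adjusted p = 0.0363), which include that same library. Under the within-region replicate block it passed as well (edgeR adjusted p = 0.0406), but the replicate numbers showed no clear pairing of genotypes. The *Plcb3* differences passed in none of the other alternatives. *Itpr1* did not differ between cerebellum and striatum by the test (0.11, 95% interval -0.36 to 0.59, adjusted p = 0.983).

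The regional order of the 7 genes was also compared among KI libraries. *Car8* was 94.6 times and *Homer3* 19.6 times higher in KI cerebellum than in KI striatum, against 134 and 32.2 times in WT, and *Plcb4* was 11.3 times higher, against 12.6 times. *Plcb1* in KI cerebellum reached 0.333 of its KI striatal level, against 0.196 in WT. For all 7 genes the cerebellum stood on the same side of each other region in both genotypes.

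The rest of the pathway was represented by a list of 26 genes. In the cerebellum 2 of them fell and 0 rose, where 0.831% of all genes were called and 0.315% fell. An unadjusted p under 0.05 was found for 10 of the 26, against 10.1% of all genes, and every KI library lay below every WT library for 7, against 6.47% of all genes. *Inpp5a*, which encodes a phosphatase that removes IP3, measured 485, 478 and 465 CPM in WT and 418, 344, 293 and 278 CPM in KI (log2 fold change -0.51, SE 0.107, adjusted p = 0.0275). Its genotypes did not overlap, and with *Plcb3* the calls include an enzyme that makes IP3 and one that removes it. This call was less stable than that of *Plcb3*, since it was kept in 1 of the 7 fits that left out a cerebellum library and was lost without the choroid-rich libraries (adjusted p = 0.187). Over the 26 genes the median was -0.12 on the log2 scale.

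Among the genes at the G protein, *Gna11*, the close relative of *Gnaq*, differed in the cerebellum by 0.06 (SE 0.069, adjusted p = 0.864). *Rgs8*, a Purkinje cell regulator that shuts off Gq, was separate between genotypes with a log2 fold change of -0.58 (adjusted p = 0.0647). Among scaffolds, *Shank2* was at -0.39 (adjusted p = 0.112), while *Homer1* and *Homer2* were at 0.06 and 0.12 with overlapping genotypes. *Dagla*, which turns diacylglycerol into an endocannabinoid, was at -0.50 (adjusted p = 0.137), and the calcium buffer *Calb1* was at -0.50 (adjusted p = 0.353). DESeq2 called *Rgs8*, *Shank2* and *Dagla* in the cerebellum, and did not call *Gna11*, *Homer1*, *Homer2* or *Calb1*. *Rgs8* and *Calb1* also stand in the Purkinje cell list.

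In the striatum 1 of the 26 genes fell and 0 rose, where 0.582% of all genes were called. Negative log2 fold changes were found for 21 of the 26, against 51.5% of all genes, and every KI library lay below every WT library for 12, against 8.46%. The median of the 26 was -0.27, and that of all genes was -0.01. *Ryr1*, the ryanodine receptor that also releases stored calcium, was at -1.05 (edgeR adjusted p = 0.0539), and DESeq2 called it. In the prefrontal cortex edgeR called 0 of the 26 and 0.107% of all genes. It put 2 of the 26 and 5.93% of all genes under an unadjusted p of 0.05. In DESeq2 these counts of the 26 were 0 and 3.

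**Figure D5:**
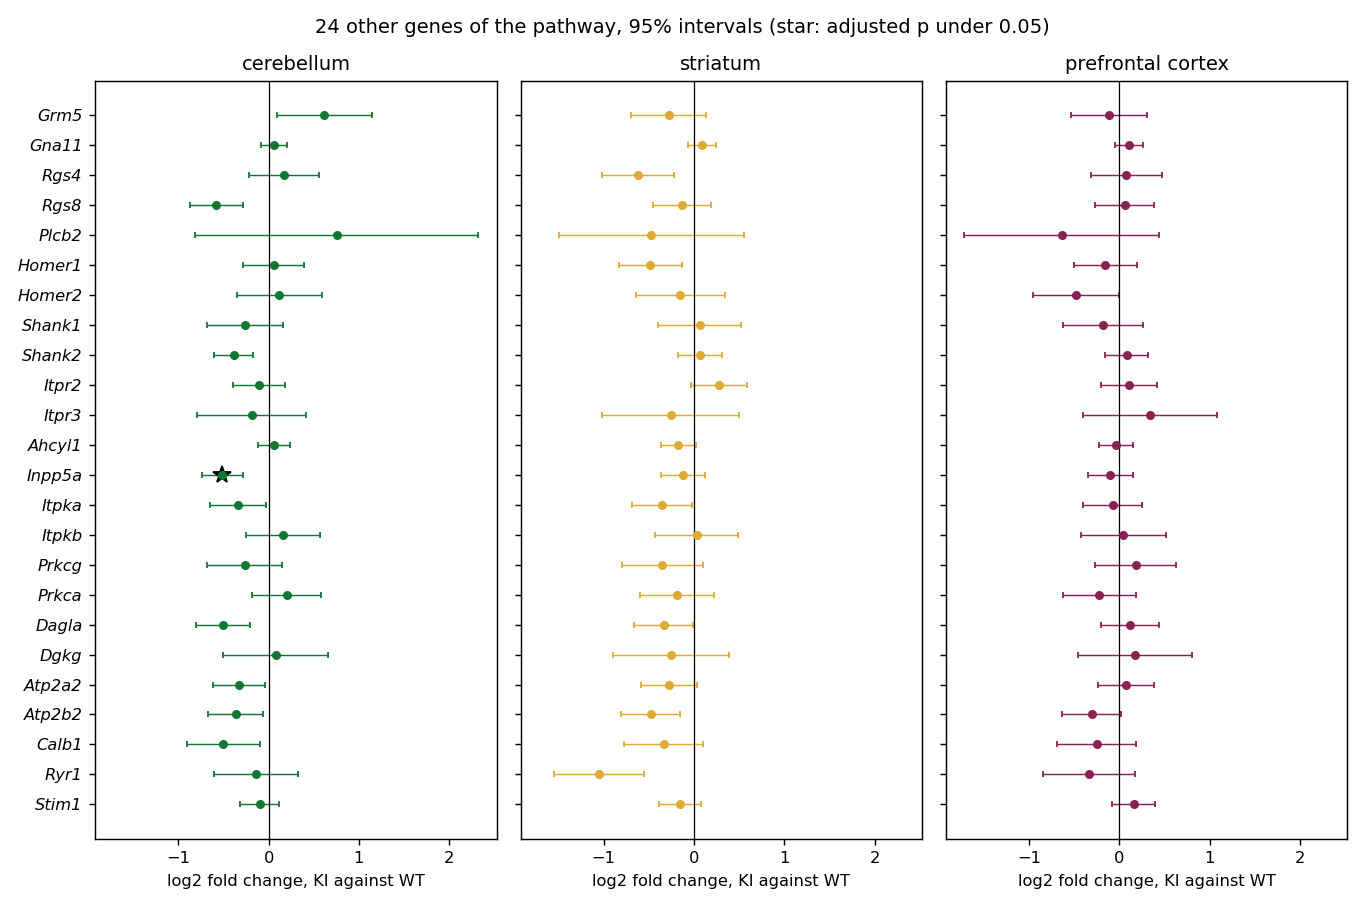
Log2 fold change of KI against WT with 95% intervals for 24 of the 26 other genes of the pathway, from the receptor step at the top to calcium handling at the bottom, in 3 panels by region, with a star where the adjusted p was under 0.05. The star stands at *Inpp5a* in the cerebellum (-0.51).

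The genes whose log2 CPM ran most like each of the 7 over the 19 libraries were named as a description, since region sets most of this spread and all libraries share it. *Itpr1* was followed most closely by *Atl2*, *Rgs8*, *Mpzl3*, *Rmnd5a* and *Calb1* (Pearson r from 0.97 to 0.96). *Car8* was followed by *Lhx1*, *Lbx1*, *Pcp2*, *Olfm3* and *Fat2* (r = 0.99 each), and *Homer3* by *Rps6ka1*, *Rgl3*, *Rictor*, *Tspan9* and *Atp2a3* (r = 0.99 each). *Plcb4* had *Exph5*, *Kcnk3* and *Rora* (r = 0.99 each) first, and *Plcb1* had *Crip2* and *Jcad* (r = 0.98 each). Ranked by Spearman's rho in place of Pearson's r, *Rgs8* came first for *Itpr1*, at 0.98, and none of the first 5 genes of *Car8* or *Homer3* stayed among the first 5.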

How the data were processed

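Total RNA was extracted with Trizol and libraries were made with the SMART-Seq v4 and Nextera XT kits, which do not mark strand. The authors deposited 1 table of raw read counts per gene for the 19 libraries, not normalized, and a second table of normalized signal in which, as tested on the values, each library's counts were divided by 1 size factor. The submitters' processing notes name bcl2fastq 2.17.1.14, STAR 2.5.2b, HTSeq, DESeq2 1.10.1 and the build GRCm38.p3, and the paper's methods name Cufflinks and Cuffdiff. The annotation and strand setting used for counting are not given in the sources used here. The identifiers were matched to GENCODE M21, from which exon lengths were also taken. Samples were grouped by region and genotype from the labels.

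Counts were tested with edgeR 4.0.16 (TMM, filterByExpr, quasi-likelihood test, R 4.3.3) in one fit of 6 groups with 13 residual degrees of freedom, with Benjamini-Hochberg adjustment over all 16841 genes and a threshold of 0.05. SEs and 95% intervals came from the F statistic of that test. CPM used TMM library sizes, and log2 CPM a prior count of 2. Plots were drawn with matplotlib 3.10.9. The fit was tested on simulated counts. The members, the pathway and marker lists and the tests were chosen with earlier results of these data known. The text names the 7 genes, list genes that were called or stand at a step of a member, markers that moved with a member, and the 5 genes of highest Pearson r to a member, not all of which are discussed. Results for 3 list genes are not reported here. They were left out of the plots but not of the counts, medians and sums of their lists. The second table served as an alternative for group levels. The alternatives were DESeq2 1.42.0, its size factors in edgeR, 2 other count filters, fits of 1 region at a time, a block for the replicate number, a sex covariate from *Xist* and Y-linked counts, each library left out and, added after seeing the data, leaving out 2 cerebellum libraries rich in choroid plexus markers.

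Libraries of a group differed beyond counting noise in all 21 replicate pairs (chi-square per degree of freedom 4.95 to 30.0). Deviations of same-numbered KI and WT libraries correlated above 0.1 in 2 of 9 pairs. They thus showed no clear pairing of genotypes by number, though so few pairs cannot exclude one. Across regions of a genotype the deviations correlated above 0.1 in 8 of 18 pairs, from -0.10 to 0.37, with all 6 pairs of striatum and cortex among them.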

Additional observations from a re-analysis of the deposited data

Results flagged for a closer look

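*Homer3* was singled out because its KI libraries moved in opposite directions in 2 regions, all below WT in the cerebellum (90.0 to 127 against 137 to 157 CPM) and all above WT in the striatum (4.76 to 6.02 against 4.33 to 4.68 CPM). The difference between the effects was -0.72 on the log2 scale (SE 0.221, unadjusted p = 0.00474, edgeR adjusted p = 0.463), which did not pass the test. The striatal values rest on 56 to 89 reads per library. In the 4 KI cerebellum libraries, the only group with enough libraries for Dixon's test, no library stood out for any of the 7 genes.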

How the results depend on the processing

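The lower level of *Plcb3* in KI cerebellum was called under all 8 alternatives (log2 fold change -0.96 to -0.88) and in all 7 fits that left out a library. Other calls among the 7 genes changed with the tool, the block or single libraries. With DESeq2, 2 of the 7 genes were called in the cerebellum (adding *Car8*), 1 in the striatum (*Plcb1*), 2 for cerebellum minus striatum and 1 for cerebellum minus cortex. The pathway list then had 5 calls in the cerebellum and 2 in the striatum, and all genes 336, 214 and 52 calls in cerebellum, striatum and cortex. With no filter beyond 1 count, or with at least 10 counts in every library, the striatal pathway calls were 2. With each region alone they were 0, all genes had 46 calls in the striatum and 0 in the cortex, and the call of *Inpp5a* was lost. Under the replicate block within regions, 2 of the 7 genes were called in the cerebellum (adding *Plcb1*), 1 in the striatum (*Plcb1*) and 1 for cerebellum minus striatum (*Plcb1*), the cerebellar pathway calls were 0 and all genes had 9 calls in the cortex. The replicate block across regions, fitted for WT regions and for the KI effect between regions, changed no call of the 7 genes. Without the 2 choroid-rich libraries, 2 of the 7 genes were called in the cerebellum, 0 of the pathway list, and 1 for cerebellum minus striatum (*Plcb1*). The cause of these differences was not tested.

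With 1 library left out, calls in the cerebellum ranged from 1 to 2 for the 7 genes, 0 to 3 for the pathway list and 73 to 151 for all genes. In the striatum the pathway list had 0 to 2 calls and all genes 36 to 121, in the cortex all genes had 5 to 16, and cerebellum minus striatum had 0 to 1 for the 7 genes. Differences near 0 changed sign. For *Car8* in the cortex the log2 fold change was -0.0060 with DESeq2, -0.0061 with its size factors, -0.0050 without the filter, -0.010 with at least 10 counts, -0.00074 with the region alone and -0.024 under the replicate block. *Homer3* in the cortex was at 0.0045 under the block and 0.0083 with the sex covariate, *Gnaq* in the striatum at -0.0062 with that covariate, and *Plcb4* in the cerebellum at 0.065 without the choroid-rich libraries. With 1 library left out, the ranges that crossed 0 were -0.10 to 0.020 for *Plcb4* in the cerebellum, -0.047 to 0.43 for *Plcb4* for cerebellum minus cortex, -0.0049 to 0.11 for *Gnaq* in the cortex, -0.17 to 0.019 for *Plcb1* in the cortex, -0.46 to 0.014 for *Plcb4* in the cortex, -0.25 to 0.11 for *Itpr1* in the cortex, -0.14 to 0.21 for *Homer3* in the cortex, -0.24 to 0.13 for *Car8* in the cortex, -0.0035 to 0.041 for *Gnaq* in the striatum and -0.19 to 0.14 for *Car8* in the striatum.

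Depth limits *Homer3* outside the cerebellum, with 44 to 89 reads per library. With 3 or 4 libraries a group, the 95% interval of *Plcb4* in KI cerebellum still allowed a log2 change of -0.44 or 0.37.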
